A study of Mus musculus with 9 samples.

Results

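The actin and tropomyosin genes of the mouse were followed through 3 stages of satellite cell culture. They are the 6 actin genes Acta1, Actc1, Acta2, Actg2, Actb and Actg1 and the 4 tropomyosin genes Tpm1, Tpm2, Tpm3 and Tpm4, taken by gene symbol, 10 of the 45706 genes in the deposited table. All 10 were in the table and passed the filter on low values. Satellite cells, the stem cells of skeletal muscle, came from the muscles of wild-type C57Bl6 mice between 12 and 20 weeks old, and each stage was represented by 3 RNA-seq libraries from different animals. The freshly isolated cells were taken without culture. The proliferating cells had grown for at least 3 days in medium with FGF-2 at 2.5 ng/ml and 20% fetal calf serum. The myotubes, the fused muscle cells formed in the dish, had spent a further 6 days in 2% horse serum. The labels name no transgene and no drug in any group, and do not name the muscles used. Each value is a gene's read count after scaling between libraries by the authors, summed over all transcripts of the gene. A larger number of cells that express a gene and more RNA per cell cannot be told apart in such bulk libraries.

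Actin is the protein of the thin filament of the sarcomere, the contractile unit of muscle, and of the actin cytoskeleton of all cells. Acta1 and Actc1 encode the skeletal and cardiac alpha-actins of striated muscle, and Actc1 is also the sarcomeric actin that dominates developing skeletal muscle before Acta1 takes over. Acta2 and Actg2 encode the smooth muscle actins, and Acta2 is also made transiently by cultured myoblasts. Actb and Actg1 encode the cytoplasmic actins of every cell. Tropomyosins are coiled coils that lie along the actin filament, where in muscle they work with troponin to control myosin binding. Tpm1, Tpm2 and Tpm3 each produce muscle and cytoskeletal proteins from alternative promoters and exons, whereas Tpm4 mainly produces cytoskeletal forms. The muscle and cytoskeletal forms of 1 gene were not separated in the values given here.

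The deposited values summed to between 20111379 and 26209153 in the freshly isolated libraries, 17751754 and 18151883 in the proliferating libraries and 19454082 and 20768064 in the myotube libraries. From the steps between low values, 1 read was worth 2.18 units in freshly isolated replicate 1 and 0.747 to 1.05 units in the other 8 libraries, so that values of a few units rest on a few reads. Freshly isolated replicate 1 also gave 22.2% of its total to the single non-coding gene Gm26917, against 2.88% to 11.2% in the others. The stage labels were checked against marker genes. The summed value of 7 satellite cell markers, among them Pax7 and Myf5, lay between 48263 and 54421 in the freshly isolated libraries and between 3916 and 6566 in the other 2 stages. The 4 markers of dividing myoblasts, Myod1, Mki67, Ccnb1 and Top2a, summed to 60141 to 64381 in the proliferating libraries, the highest of the 3 stages. Their sum was 5175 to 7004 in freshly isolated and 19450 to 28641 in myotube libraries. Mki67 alone was at 9247, 13203 and 7550 in myotubes, so that a signal of dividing cells remained there. The 6 measured markers of differentiated muscle cells, among them Myog and the embryonic myosin Myh3, summed to 418410 to 485628 in myotubes.

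The coding parts of the 6 actin genes are alike but not identical, and the last 60 coding bases, stop codon included, show this. They are given in the sense direction, 5′ to 3′, from GENCODE transcripts of the GRCm38 build, and capitals mark the bases that differ from Acta1.
Acta1: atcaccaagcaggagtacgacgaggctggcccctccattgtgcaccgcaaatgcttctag
Actc1: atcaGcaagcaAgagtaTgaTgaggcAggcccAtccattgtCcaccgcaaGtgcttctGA
Acta2: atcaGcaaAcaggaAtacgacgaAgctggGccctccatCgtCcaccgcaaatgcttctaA
Actg2: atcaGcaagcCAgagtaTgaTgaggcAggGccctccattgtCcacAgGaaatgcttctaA
Actb: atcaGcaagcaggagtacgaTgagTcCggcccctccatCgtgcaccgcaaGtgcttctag
Actg1: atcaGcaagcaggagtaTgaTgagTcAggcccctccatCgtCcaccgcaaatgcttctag
Between 6 and 11 of the 60 bases differed from Acta1, with Actb the nearest and Actg2 the farthest. Over the last 1110 coding bases, the 15 pairs of actin genes were identical at 82.1% to 88.8% of positions, with the highest value for Actb and Actg1 and 86.1% for Acta1 and Actc1. Whole transcripts were easier to tell apart. Of all 50-base windows of its transcripts, Actc1, Actg2, Tpm1 and Tpm2 shared none with another annotated gene, Acta2 shared 0.326%, Acta1 2.02% and Actb 9.12%. The values of Actg1, Tpm3 and Tpm4 are less certain, because 37.4%, 23.2% and 15.7% of their windows also occur in other genes, chiefly pseudogenes and retrocopies. Tpm3-rs7, which shares the most windows with Tpm3, had values of 42 to 102 across the 9 libraries. The genes that share the most windows with Actg1 were Gm12715, at 4 to 41, Gm8399, at 1 to 17, and Actg-ps1, at 0 to 5. For Tpm4 it was Gm7809, at 17 to 85, and for Actb the protein-coding gene Lrrc58, at 1964 to 5148. Tpm4 shares 134 exon bases with the antisense gene Gm26586, whose values were 31 to 126, and whether reads were counted by strand is not stated, so that reads of this pair cannot be told apart with certainty.

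The promoters of the actin genes are textbook targets of serum response factor, which binds the CArG box, a run of 2 C, 6 A or T and 2 G. Windows of 250 bases before to 50 bases after the annotated transcription start were taken from RefSeq (GRCm38.p6) and searched on both strands. Windows were present for 8 of the 10 genes, with 2 windows for Tpm3. Those of 4 actin genes are printed on the minus strand of the chromosome, the strand of the gene, with CArG boxes in capitals.
Acta1, chr8:123894726-123895025: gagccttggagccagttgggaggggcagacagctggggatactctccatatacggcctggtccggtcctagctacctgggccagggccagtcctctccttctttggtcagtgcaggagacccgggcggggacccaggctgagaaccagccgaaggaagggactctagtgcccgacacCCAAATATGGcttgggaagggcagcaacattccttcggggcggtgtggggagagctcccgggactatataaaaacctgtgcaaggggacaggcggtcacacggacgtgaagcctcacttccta
Actc1, chr2:114052826-114053125: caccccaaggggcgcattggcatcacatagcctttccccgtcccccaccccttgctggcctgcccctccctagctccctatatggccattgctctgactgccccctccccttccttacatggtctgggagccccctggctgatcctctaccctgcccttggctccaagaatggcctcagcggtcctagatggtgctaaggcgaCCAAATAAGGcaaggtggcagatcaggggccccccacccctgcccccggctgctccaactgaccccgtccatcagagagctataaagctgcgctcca
Acta2, chr19:34255324-34255623: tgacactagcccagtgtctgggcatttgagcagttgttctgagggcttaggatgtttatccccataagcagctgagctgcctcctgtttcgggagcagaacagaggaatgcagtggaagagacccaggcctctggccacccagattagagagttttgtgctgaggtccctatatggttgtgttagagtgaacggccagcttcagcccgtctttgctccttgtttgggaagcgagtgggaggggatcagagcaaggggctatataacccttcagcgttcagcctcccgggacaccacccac
Actg1, chr11:120348446-120348745: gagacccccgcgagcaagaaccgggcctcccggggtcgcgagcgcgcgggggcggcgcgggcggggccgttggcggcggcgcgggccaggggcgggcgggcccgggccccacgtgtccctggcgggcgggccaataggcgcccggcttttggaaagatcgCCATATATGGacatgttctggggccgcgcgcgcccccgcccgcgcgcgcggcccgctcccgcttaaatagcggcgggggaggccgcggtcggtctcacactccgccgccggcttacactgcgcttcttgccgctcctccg
A perfect CArG box lay 73 bases before the RefSeq start in Acta1, 47 bases before it in Actc1 and 90 bases before it in Actg1. Of all 32851 windows in the table, 1.63% held such a box. No perfect match was present in the windows of Acta2, Tpm1, Tpm2, Tpm3 or Tpm4, which says only that these letters are absent there. The MCAT motif CATTCC, read on either strand, occurred in the windows of Acta1, Acta2 and Tpm1 and in 14.7% of all windows. The E-box CANNTG, the motif of myogenic bHLH factors, occurred in every one of the 9 windows and in 72.3% of all windows. The motif TATAAA was present in Acta1, 7 bases before the RefSeq start, in Actc1, 33 bases after it, and in 13.6% of all windows. None of these motifs overlapped a CArG box in the printed windows. The distances hold for the RefSeq starts only, which were not checked. For Actc1 the 5′ end of the gene in GENCODE, 114053548, lies outside the window. The 3 genes with a CArG box did not share a course: Acta1 and Actc1 rose at both steps, whereas Actg1 rose at the first and fell at the second, as the values of each gene show.

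Changes were tested with limma on log2(value + 1) in a single fit of all 9 libraries over the 17291 genes tested, with Benjamini-Hochberg adjustment over all of them, and a gene was called at an adjusted p below 0.05. A fold change is on this log2(value + 1) scale. From freshly isolated to proliferating cells, 9 of the 10 genes were called higher and 1, Tpm3, was called lower, where 37.6% of all genes tested were called higher and 35.7% lower. From proliferating cells to myotubes, 7 genes were called higher and 3, Actb, Actg1 and Tpm4, were called lower, against 28.6% and 25.5% of all genes tested. Myotubes compared with freshly isolated cells gave 6 genes higher, namely Acta1, Actc1, Acta2, Actg2, Tpm1 and Tpm2, and 1 lower, Actg1, against 40.2% and 37.3% of all genes tested. The median change over all genes tested was 0.07, 0.04 and 0.10 on the log2 scale in these 3 comparisons. Since each pair of comparisons shares the libraries of a stage, they are not independent of each other. With so large a share of all genes called, the counts alone do not set the 10 genes apart, and their individual sizes follow.

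**Figure D1:**
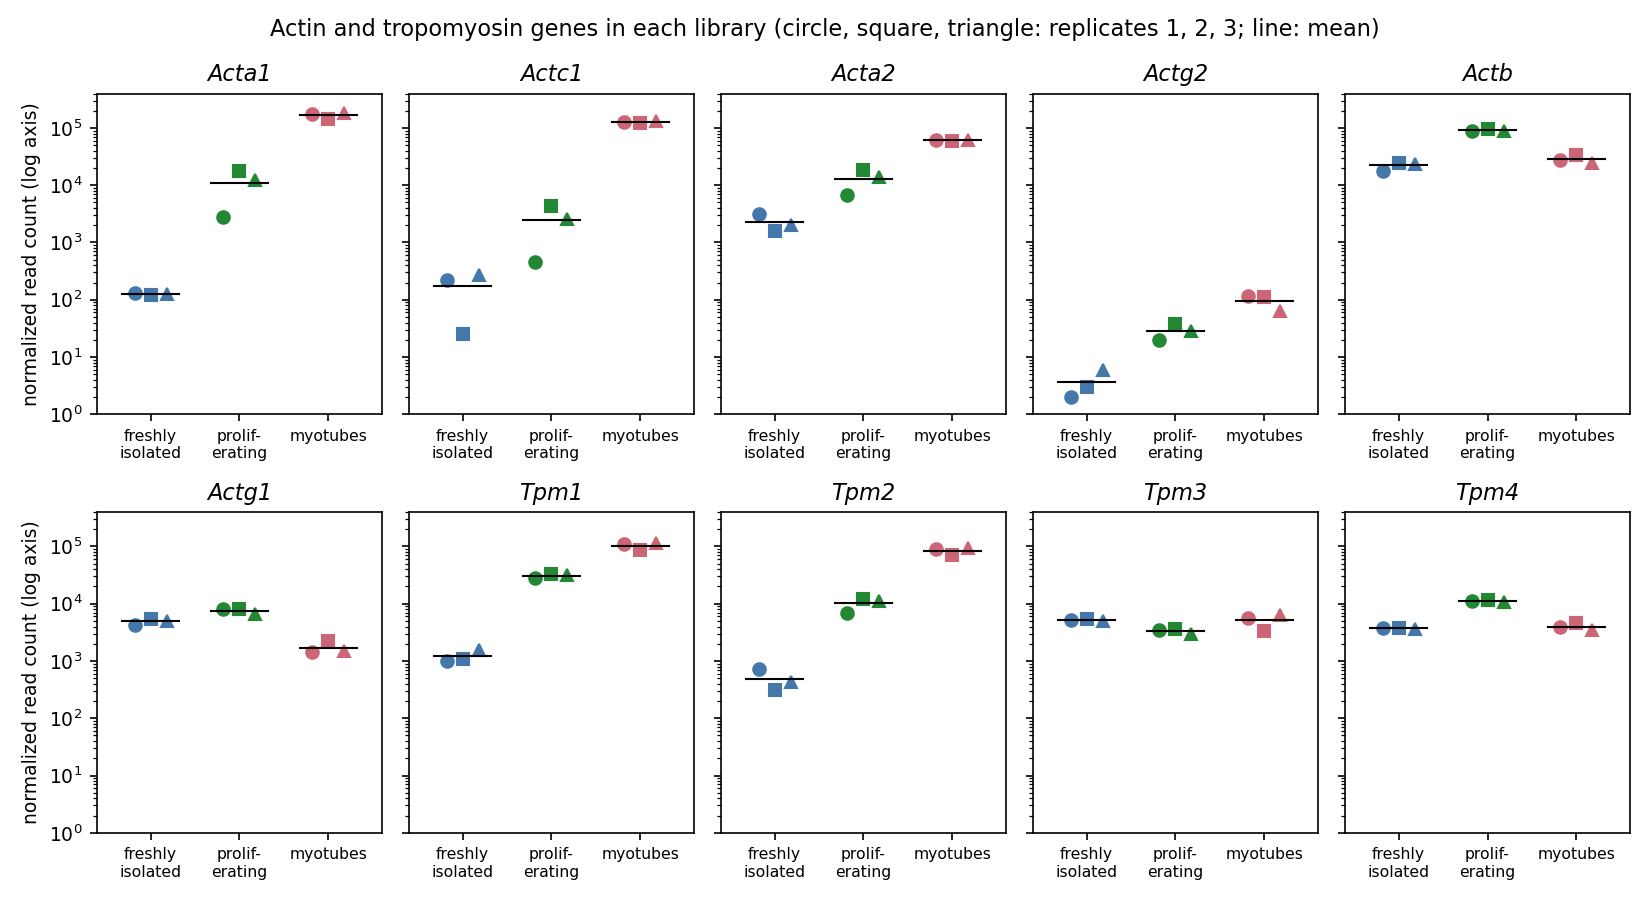
Normalized read count (log axis) of each of the 10 genes in the 3 libraries of each stage, with circles, squares and triangles for replicates 1, 2 and 3 and a line at the mean. Acta1, Actc1, Tpm1 and Tpm2 climbed by stage to values of 70957 or more in every myotube library. Actb, Actg1 and Tpm4 were highest in the proliferating libraries.

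Acta1, the skeletal alpha-actin, lies on chromosome 8, from 123891769 to 123894751 on the minus strand (GRCm38). Its normalized read counts were 129, 122 and 126 in the freshly isolated libraries, 2770, 18075 and 12511 in the proliferating libraries, and 173090, 142430 and 181974 in the myotube libraries. The 3 stages did not overlap, and the proliferating libraries differed among themselves far more than those of the other stages. Acta1 rose 67.6-fold from freshly isolated to proliferating cells (log2 change 6.08 ± 0.53, SE, n = 3 per stage, limma adjusted p = 2.93e-06) and a further 19.3-fold in myotubes (4.27 ± 0.53, adjusted p = 8.22e-05). How the rise was divided depended on single libraries and on the settings. Without proliferating replicate 1 the first change was 6.89 and the second 3.46 on the log2 scale. The difference between the changes, second minus first, was -1.81 (limma adjusted p = 0.117) with all libraries and -3.44 (adjusted p = 1.88e-05) without that library. It was -0.73 (adjusted p = 0.511) without proliferating replicate 2. Under quantile normalization it was -2.46 (adjusted p = 0.046), and with array weights -2.49 (adjusted p = 0.00494).

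Actc1, the cardiac alpha-actin, lies on chromosome 2, from 114047282 to 114053548 on the minus strand. It had values of 220, 25 and 274 in the freshly isolated libraries, 453, 4356 and 2618 in the proliferating libraries and 124677, 122868 and 133545 in myotubes. Freshly isolated replicate 2 and proliferating replicate 1 were the low libraries of their stages, but the stages did not overlap. Actc1 rose 14.9-fold in proliferating cells (log2 change 3.89 ± 0.93, SE, n = 3 per stage, limma adjusted p = 0.00346) and 73.4-fold from there to myotubes (6.20 ± 0.93, adjusted p = 0.000287). The difference between the 2 changes, 2.30 on the log2 scale, did not pass the test (limma adjusted p = 0.243). The first change was 2.81 without freshly isolated replicate 2, 4.51 without freshly isolated replicate 3, 4.86 without proliferating replicate 1 and 3.23 without proliferating replicate 2, and it passed the test each time. The second was 5.23 without proliferating replicate 1 and 6.86 without proliferating replicate 2, and also passed. The difference between the changes was 0.37 without proliferating replicate 1 (adjusted p = 0.85) and 3.39 without freshly isolated replicate 2 (adjusted p = 0.0384). When freshly isolated replicate 1 and proliferating replicate 1 were both omitted it was -0.09, so that no order of the 2 steps can be given for this gene.

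Freshly isolated replicate 2 and proliferating replicate 1, the libraries low in Actc1, were also the lowest of their stages in Myog. Myog, the myogenic factor of differentiating myoblasts, had values of 1257, 62 and 218 in the freshly isolated libraries and of 2179, 9530 and 8749 in the proliferating libraries. Myh3, the embryonic myosin heavy chain, had values of 3055, 23038 and 15385 in the proliferating libraries. Over the 6 measured differentiated-muscle markers, the sum ranged from 123 to 1536 in freshly isolated libraries and from 5660 to 34756 in proliferating libraries, and none of the 6 was at 0 throughout a stage. Proliferating replicate 1 was the lowest of its stage for Acta1, Actc1, Acta2, Actg2, Tpm1 and Tpm2, where it was the lowest for 35.3% of all genes tested. Proliferating replicate 2 was the highest for 9 of the 10 genes, all except Actg1, against 35.6% of all genes tested. Myotube replicate 2, the highest of its stage in Mki67 and Top2a, was the highest for Actb, Tpm4 and Actg1, against 34.4% of all genes tested. It was the lowest for Acta1, Actc1, Acta2, Tpm1, Tpm2 and Tpm3, against 38.1% of all genes tested. The part in these values of differentiating cells in the proliferating libraries, or of dividing cells in the myotube libraries, was not tested.

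Acta2, the smooth muscle alpha-actin, lies on chromosome 19, from 34241090 to 34255590 on the minus strand. Its values were 3144, 1567 and 2029 in freshly isolated cells, 6866, 18161 and 14036 in proliferating cells and 61639, 60374 and 60888 in myotubes. The 3 myotube libraries lay within a narrow band, and no stage overlapped another. Acta2 rose at both steps by a like amount, 5.59-fold (log2 change 2.48 ± 0.33, SE, n = 3 per stage, limma adjusted p = 6.66e-05) and 5.06-fold (2.34 ± 0.33, adjusted p = 0.000195). The 2 changes differed by -0.14 ± 0.58 (SE, limma adjusted p = 0.843). That difference was 0.45 without proliferating replicate 2 and -0.96 without proliferating replicate 1, neither called, and -1.23 (limma adjusted p = 0.000698) with freshly isolated replicate 1 and proliferating replicate 1 both omitted. Of the 12 smooth muscle and pericyte markers, none was at 0 throughout a stage, and their sum was 2889 to 3199 in freshly isolated, 4131 to 6398 in proliferating and 9343 to 9909 in myotube libraries. At the first step 3 of the 10 markers tested were called higher and 4 lower (median log2 change -0.80), although the sum rose. Of all genes tested, 37.6% were called higher and 35.7% lower there. At the second step 7 of the 10 markers were called higher and 1 lower (median 1.24), against 28.6% and 25.5% of all genes tested. Mylk went from 290 to 417 in freshly isolated libraries to 24 to 50 in proliferating ones, whereas Smtn went from 559 to 917 to 1245 to 1639. Myh11, the smooth muscle myosin heavy chain, was at 3 to 16 and the calponin Cnn1 at 2 to 22 in all 9 libraries. In myotubes Synpo2 was at 4221 to 4360, Smtn at 2684 to 2966, Abcc9 at 1420 to 1751 and Lmod1 at 91 to 108. The remaining markers were at 376 or below in every myotube library, with Kcnj8 at 0 to 1. The part of smooth muscle cells or pericytes in the Acta2 values was not tested.

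Actg2, the enteric smooth muscle actin, lies on chromosome 6, from 83512905 to 83536265 on the minus strand, and was the least abundant actin throughout. It had values of 2, 3 and 6 in freshly isolated cells, 20, 38 and 29 in proliferating cells and 115, 110 and 64 in myotubes. These values rest on few reads, although the stages did not overlap. Actg2 rose by 2.73 ± 0.44 on the log2 scale at the first step (SE, n = 3 per stage, limma adjusted p = 0.000241) and by 1.70 ± 0.44 at the second (adjusted p = 0.00775). With a pseudocount of 10 in place of 1, the first change was 1.497 and the change from freshly isolated cells to myotubes was 2.93 in place of 4.43, both still called.

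Actb, the cytoplasmic beta-actin often used as a reference gene, lies on chromosome 5, from 142903115 to 142906754 on the minus strand. Its normalized read counts were 17968, 24879 and 23537 in freshly isolated cells, 88523, 97341 and 88102 in proliferating cells and 27167, 33433 and 24791 in myotubes. The proliferating libraries stood well above the other 6, and the freshly isolated and myotube libraries overlapped. Actb rose 4.16-fold in proliferating cells (log2 change 2.06 ± 0.15, SE, n = 3 per stage, limma adjusted p = 9.27e-07) and fell by 1.69 ± 0.15 on the log2 scale in myotubes (adjusted p = 1.09e-05). Myotubes and freshly isolated cells differed by 0.37 ± 0.15 (SE, limma adjusted p = 0.0506), at the edge of the threshold.

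Actg1, the cytoplasmic gamma-actin, lies on chromosome 11, from 120345690 to 120348542 on the minus strand. It had values of 4305, 5456 and 4985 in freshly isolated cells, 8070, 8008 and 6742 in proliferating cells and 1432, 2193 and 1500 in myotubes. All 3 stages were separate, with myotubes the lowest. Actg1 rose 1.55-fold at the first step (log2 change 0.63 ± 0.16, SE, n = 3 per stage, limma adjusted p = 0.0053) and fell by 2.18 ± 0.16 at the second (adjusted p = 3.6e-06). It was the sole gene of the 10 called lower in myotubes than in freshly isolated cells, by 1.54 on the log2 scale (limma adjusted p = 9.58e-06). The ratio of Actb to Actg1, each per kilobase of exon, was 4.14 to 4.68 in freshly isolated libraries. It was 10.9 to 13.0 in proliferating libraries and 15.1 to 18.8 in myotubes, so that the 2 cytoplasmic actins did not keep a fixed proportion. Of the 50-base windows, 37.4% of Actg1 and 9.12% of Actb also occur in other genes, so that the level of this ratio is less certain.

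Tpm1, the alpha-tropomyosin gene, lies on chromosome 9, from 67022590 to 67049406 on the minus strand. Its values were 1002, 1085 and 1575 in freshly isolated cells, 27919, 33013 and 32163 in proliferating cells and 111030, 86609 and 113675 in myotubes. Each stage was separate from the others. Tpm1 rose 25.8-fold at the first step (log2 change 4.69 ± 0.17, SE, n = 3 per stage, limma adjusted p = 8.13e-09) and 3.33-fold at the second (1.73 ± 0.17, adjusted p = 1.99e-05). The first step was the larger, the changes differing by -2.96 ± 0.30 (SE, limma adjusted p = 1.69e-05). Under quantile normalization the second change was 0.65 (limma adjusted p = 0.004), against 1.73 with the scaling as deposited.

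Tpm2, the beta-tropomyosin gene, lies on chromosome 4, from 43514711 to 43523765 on the minus strand. It had values of 717, 306 and 430 in freshly isolated cells, 6824, 12280 and 11313 in proliferating cells and 88893, 70957 and 94334 in myotubes. The stages did not overlap, and proliferating replicate 1 was again the low library of its stage. Tpm2 rose 21.5-fold (log2 change 4.43 ± 0.30, SE, n = 3 per stage, limma adjusted p = 4.64e-07) and then 8.56-fold (3.10 ± 0.30, adjusted p = 1.6e-05). The difference between the changes was -1.33 (limma adjusted p = 0.0479), and 10 of the alternatives tried moved its adjusted p to between 0.0526 and 0.191.

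Tpm3, which encodes the slow-muscle alpha-tropomyosin and cytoskeletal forms, lies on chromosome 3, from 90072649 to 90100902 on the plus strand. Its values were 5133, 5408 and 4969 in freshly isolated cells, 3437, 3650 and 3014 in proliferating cells and 5588, 3361 and 6384 in myotubes. Myotube replicate 2 fell within the proliferating range, whereas the freshly isolated and proliferating libraries did not overlap. Tpm3 fell by 0.62 ± 0.20 on the log2 scale at the first step (SE, n = 3 per stage, limma adjusted p = 0.0164) and rose by 0.55 ± 0.20 at the second (adjusted p = 0.0375). The first call was lost with libraries scaled to the same total (-0.32, adjusted p = 0.182), under quantile normalization (adjusted p = 0.0591) and without proliferating replicate 3 (adjusted p = 0.0621). The second was lost under 9 alternatives, with adjusted p between 0.0524 and 0.149, among them the omission of any 1 proliferating library or of myotube replicate 1 or 3. Both Tpm3 changes are therefore small and depend on the scaling and on single libraries.

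Tpm4, the cytoskeletal tropomyosin gene, lies on chromosome 8, from 72134975 to 72153142 on the plus strand. It had values of 3713, 3799 and 3583 in freshly isolated cells, 11380, 11741 and 10687 in proliferating cells and 3852, 4533 and 3455 in myotubes. The proliferating libraries were apart from the rest, and the other 2 stages overlapped. Tpm4 rose 3.05-fold (log2 change 1.61 ± 0.10, SE, n = 3 per stage, limma adjusted p = 3.14e-07) and fell by 1.52 ± 0.10 in myotubes (adjusted p = 2.21e-06). Between freshly isolated cells and myotubes the difference was 0.09 ± 0.10 (SE, limma adjusted p = 0.468). Like Actb and Actg1, it was highest in all 3 proliferating libraries. The antisense gene Gm26586 was at 84 to 93 in the proliferating libraries and 107 to 126 in the freshly isolated ones.

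**Figure D2:**
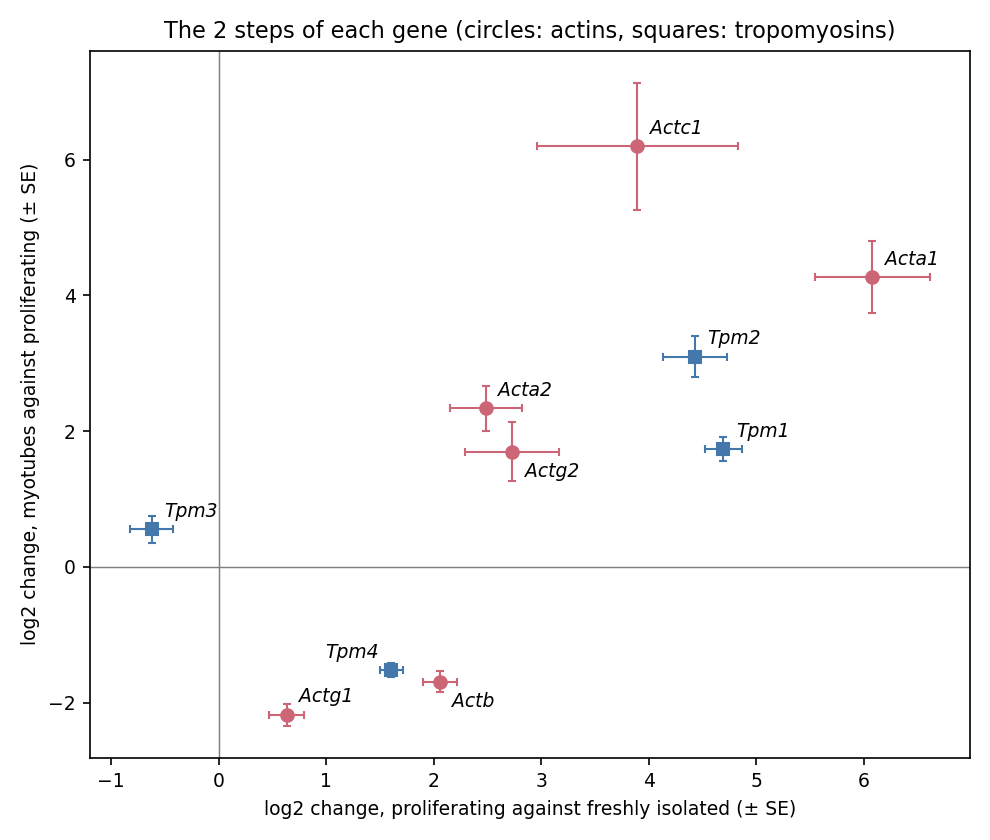
Log2 change from proliferating cells to myotubes against that from freshly isolated to proliferating cells, with circles for actins, squares for tropomyosins and bars for 1 SE; both axes use the proliferating libraries and are not independent. Acta1, Actc1, Acta2, Actg2, Tpm1 and Tpm2 lie where both changes are positive, Actb, Actg1 and Tpm4 where the second is negative, and Tpm3 is the sole gene with a negative first change.

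The change at the second step minus that at the first was tested within the same fit. It was called lower for 5 genes, Actb, Actg1, Tpm1, Tpm2 and Tpm4, and higher for 1, Tpm3, where 28.8% of all genes tested were called lower and 31.3% higher, and the median of all genes tested was 0.04. The largest difference was that of Actb, -3.75 on the log2 scale (limma adjusted p = 1.48e-06), followed by Tpm4 at -3.13 (adjusted p = 3.78e-07), Tpm1 at -2.96 and Actg1 at -2.81 (adjusted p = 1.52e-05). For Tpm1 this reflects 2 increases of unequal size, and for Actb, Actg1 and Tpm4 an increase followed by a decrease. For Tpm3 the difference was 1.18 (limma adjusted p = 0.0134), and it was not called without proliferating replicate 3 (adjusted p = 0.0652) or with libraries scaled to the same total (adjusted p = 0.112). With freshly isolated replicate 1 and proliferating replicate 1 both omitted, 7 genes were called lower and 1 higher.

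To compare the amounts of the isoforms, values were divided by the exon length of each gene, from 1536 bases for Acta1 to 6485 bases for Tpm1, and given as a share of the family in each library. The cytoplasmic actins Actb and Actg1 made up 83.4%, 93.3% and 90.0% of actin in the freshly isolated libraries, 87.4%, 63.4% and 68.7% in the proliferating libraries and 4.67%, 6.35% and 4.11% in myotubes. The sarcomeric actins Acta1 and Actc1 took the opposite course, with 2.20%, 0.781% and 2.12%, then 5.04%, 23.3% and 18.9%, then 83.0%, 80.5% and 84.2%. Myotubes did not overlap the other stages for either share, and proliferating replicate 1 lay among the freshly isolated libraries for the cytoplasmic share. The smooth muscle actins, almost wholly Acta2, held 14.4%, 5.89% and 7.84% in freshly isolated cells, 7.60%, 13.4% and 12.4% in proliferating cells and 12.3%, 13.2% and 11.6% in myotubes. Per kilobase this share overlapped between all 3 stages, although Acta2 itself rose at both steps. Without division by length it was 15.1% to 16.7% in myotubes, above the 12.2% and 12.5% that the highest freshly isolated and proliferating libraries reached.

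Within the sarcomeric pair, Acta1 exceeded Actc1 per kilobase in all 3 proliferating libraries, by 4.37-fold to 6.44-fold, and in all 3 myotube libraries, by 1.22-fold to 1.46-fold. In freshly isolated libraries the ratio of Acta1 to Actc1 was 0.618, 5.14 and 0.484, so that no isoform led there. Acta1 held 47.7% ± 3.02 (SD, n = 3) of actin in myotubes and Actc1 34.8% ± 1.28. The ratio of Acta1 to Actb per kilobase went from 0.00855 to 0.0125 in freshly isolated libraries, through 0.0546 to 0.324 in proliferating ones, to 7.43 to 12.8 in myotubes. Beta-actin was thus the more abundant of the 2 in all 6 libraries of the first 2 stages and skeletal actin in all 3 myotube libraries.

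Among tropomyosins, Tpm1 and Tpm2 together held 13.7%, 9.44% and 13.8% in freshly isolated cells, 53.7%, 61.1% and 62.3% in proliferating cells and 94.7%, 93.5% and 95.0% in myotubes, with no overlap between stages. Tpm1 held about the same share in the last 2 stages, 34.4% ± 0.844 and 33.5% ± 0.473 (SD, n = 3), while Tpm2 went from 24.7% ± 4.97 to 60.9% ± 0.655. Tpm4 held 58.2% ± 1.33, 37.0% ± 4.15 and 3.85% ± 1.11 in the 3 stages, and Tpm3 29.5% ± 1.15, 3.996% ± 0.539 and 1.73% ± 0.324. Without division by length Tpm1 and Tpm2 together held 16.1%, 73.6% and 95.4% in the 3 stages, and the sarcomeric actins 76.2% of actin in myotubes. The exon length of a gene with several transcript forms is an approximation, and for Tpm1 and Tpm3 it covers exons that no single transcript holds.

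**Figure D3:**
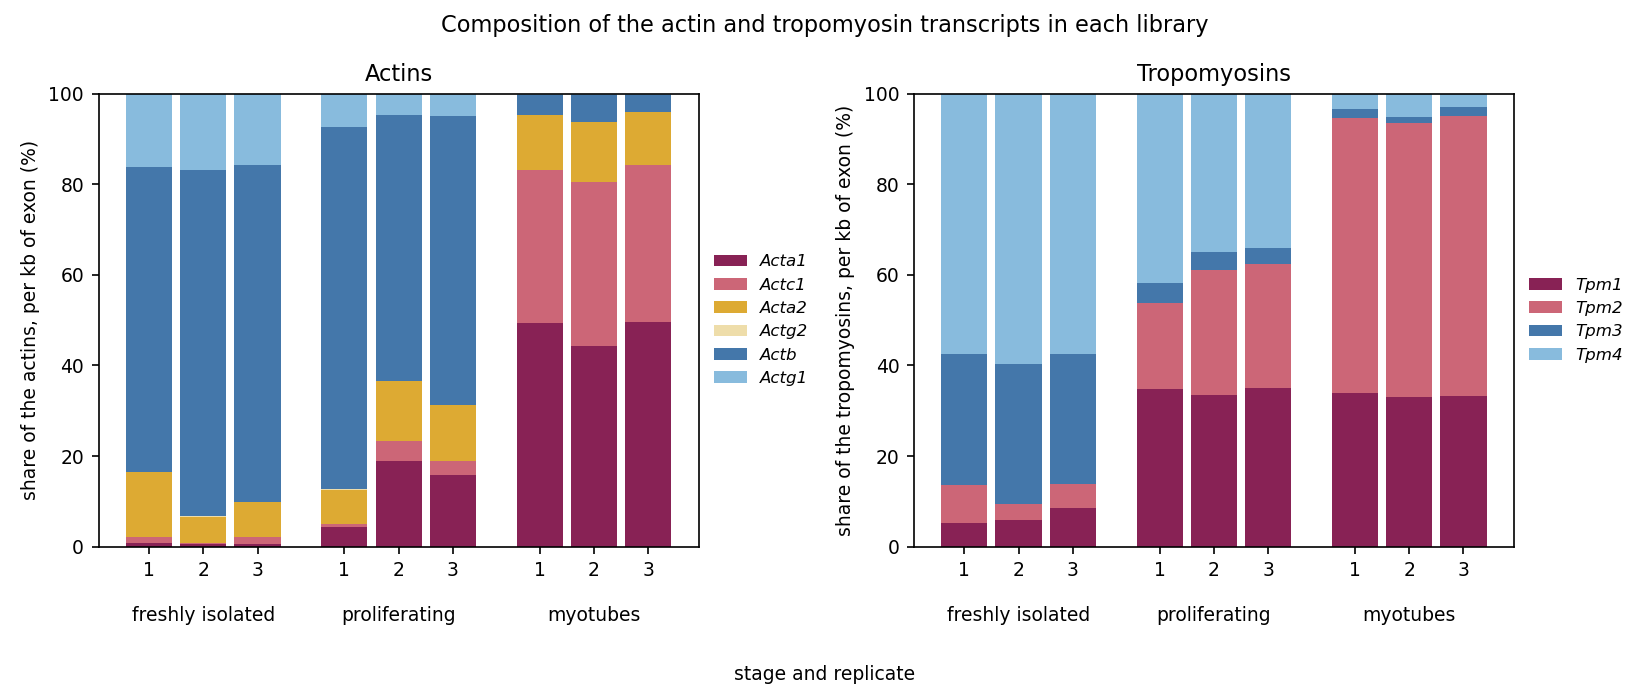
Share of each gene in the summed actin (left) and tropomyosin (right) values per kilobase of exon, in percent, with a bar for each of the 9 libraries. The 2 blue actins fill 63.4% to 93.3% of the bars before differentiation and 4.11% to 6.35% in myotubes, the red tropomyosins grow from 9.44% to 13.8% up to 93.5% to 95.0%, and Actg2 is too small to be seen.

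The order of the levels per kilobase changed with the stage. In freshly isolated cells it was Actb, Actg1, Acta2, then Actc1 and Acta1, which overlapped, then Actg2. In proliferating cells Actb led, followed by Acta1 and Acta2, which overlapped, then Actg1 and Actc1, which overlapped, then Actg2. In myotubes the order was Acta1, Actc1, Acta2, Actb, Actg1 and Actg2, with no neighbours overlapping. The tropomyosins ran Tpm4, Tpm3, Tpm1 and Tpm2 in freshly isolated cells, where Tpm1 and Tpm2 overlapped. They ran Tpm4, Tpm1, Tpm2 and Tpm3 in proliferating cells, where Tpm4 and Tpm1 overlapped, and Tpm2, Tpm1, Tpm4 and Tpm3 in myotubes with no overlap. The order of the tropomyosins, and that of Acta1 and Acta2 in proliferating cells, rests on the division by length. Without it, Acta2 held a mean of 10.1% of actin in proliferating cells and Acta1 8.35%. Undivided, Tpm3 led in freshly isolated cells with a mean of 48.9% of the family against 35.0% for Tpm4, Tpm1 led in proliferating cells with 55.7% against 20.3% for Tpm4, and in myotubes Tpm1 held 52.5% against 42.9% for Tpm2, and Tpm3 2.54% against 2.06% for Tpm4.

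Both families also grew as a share of the whole library. The 6 actins took 0.0983% to 0.157% of the deposited total in freshly isolated libraries, 0.6005% to 0.804% in proliferating libraries and 1.86% to 1.94% in myotubes. The 4 tropomyosins took 0.0403% to 0.0525%, 0.279% to 0.334% and 0.851% to 1.05%. The ratio of actin to tropomyosin per kilobase stayed within narrower bounds, at 3.41 to 4.21, 3.34 to 4.07 and 4.54 to 5.19, with the myotube libraries above the other 6.

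Genes with the most similar course were sought among 10965 genes by the root mean square difference of their centred log2 profiles over the 9 libraries, which differ mainly by stage. Nearest to Acta1 were Tnni2, the fast skeletal troponin I, at a distance of 0.44, the kinase Dclk1 at 0.47, and Ldb3, a Z-disc protein, at 0.65. Nearest to Actc1 were Tnnc1, the slow skeletal and cardiac troponin C, at 0.66, Tnni1, the slow skeletal troponin I, at 0.69, and Filip1 at 0.71. Tnni2 had a first change of 5.97 and a second of 4.11 on the log2 scale, and Tnni1 of 4.21 and 6.33. Second minus first, the difference was -1.86 for Tnni2 (limma adjusted p = 0.0104) and 2.12 for Tnni1 (adjusted p = 0.0533). It was not called for Acta1 (adjusted p = 0.117) or Actc1 (adjusted p = 0.243). No pairing of the fast or slow troponin I gene with 1 alpha-actin can therefore be drawn. Nearest to Tpm2 were the calcium channel subunit Cacng1 (0.28), Neb, which encodes nebulin, a giant protein along the thin filament (0.32), and Akap6 (0.37). Tpm1 had Akr1b8 (0.25), the acetylcholine receptor subunit Chrna1 (0.26) and Pkia (0.31), and Acta2 had Stac3, a component of excitation-contraction coupling (0.16), Gbp9 (0.22) and Ablim1 (0.29). Actg2 was nearest to Dbndd1, Fopnl and Mest, at 0.29 to 0.36.

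Actb, Tpm4 and Actg1, which peaked in proliferating cells, and Tpm3, whose mean was lowest there, had other neighbours. Actb was nearest to Ctc1, Rfwd3 and Atoh8, at distances of 0.13 to 0.16. Tpm4 had the closest neighbours of all 10 genes, Utp20, a ribosome assembly factor, the kinase Vrk1 and the histone chaperone Nap1l1, at 0.07 to 0.09. Actg1 was nearest to Rrp1b, the poly(A)-binding protein gene Pabpc1 and Ubqln2, at 0.14 to 0.17, and Tpm3 to the ribosomal protein genes Rpl36a, Rpl36 and Rpl18, at 0.14 to 0.16. A gene with small changes, such as Tpm3, lies near many others by this measure.

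Genes that act on actin filaments were counted in 6 lists, to set beside the isoforms. In the list of thin filament length and pointed-end genes, 7 of 14 were called higher and 2 lower at the first step (median log2 change 0.66), and 10 higher and 3 lower at the second (median 3.35). Of all genes tested, 37.6% were called higher and 35.7% lower at the first step and 28.6% and 25.5% at the second, and the counts of the other 5 lists are to be read against the same shares. Nrap, which takes part in myofibril assembly, rose by 6.68 and then by 2.96 on the log2 scale (limma adjusted p = 0.000152 and 0.0294), and the second change was not called without any 1 of 5 of the 6 libraries concerned, with 2.43 (adjusted p = 0.107) without proliferating replicate 1. The first change of Nrap was 5.22 without freshly isolated replicate 1 and 7.57 without replicate 3. Lmod3, a leiomodin that nucleates actin in the sarcomere, rose by 6.64 and 4.82 (adjusted p = 6.8e-05 and 0.0011) from values of 0, 8 and 15 in freshly isolated cells. Its first change was 5.01 with a pseudocount of 10, 5.44 without freshly isolated replicate 1, 7.44 without freshly isolated replicate 3 and 7.30 without proliferating replicate 1, and its second 4.15 without proliferating replicate 1. Xirp2 rose by 3.88 and 5.99, and the omission of single libraries moved these changes to between 3.05 (without freshly isolated replicate 1) and 5.09 (without proliferating replicate 1) and between 4.78 (without proliferating replicate 1) and 6.77 (without proliferating replicate 2). Xirp1, its relative, rose by 4.70 and then had a change of -0.26 (adjusted p = 0.437), which was called with array weights (-0.34, adjusted p = 0.0407) and with freshly isolated replicate 1 and proliferating replicate 1 both omitted (-0.46, adjusted p = 0.027). Tmod1, the tropomodulin that caps the pointed end of the muscle thin filament, had a first change of 0.23 (adjusted p = 0.731), which was 1.23 (adjusted p = 0.0079) with freshly isolated replicate 1 and proliferating replicate 1 both omitted, and rose by 5.41 in myotubes (adjusted p = 2.54e-05), from 53.0 ± 35.0 to 1900 ± 225 (SD, n = 3), or by 4.75 without proliferating replicate 1.

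Of 15 genes for filament turnover and monomer binding, 13 were called higher and 1 lower at the first step (median 1.18), and 7 higher and 8 lower at the second (median -0.43). Tmsb10, a thymosin that binds actin monomers, rose by 3.31 and 1.34 on the log2 scale (limma adjusted p = 1.06e-06 and 0.00126), and Cap2, a cyclase-associated protein of striated muscle, by 2.93 and 2.43. Cfl2, the muscle cofilin, rose by 0.92 and 2.31, and Twf2 by 1.54 and 3.16. The gelsolin gene Gsn, whose product severs and caps filaments, fell by 4.62 from 22316 ± 3163 to 921 ± 240 (SD, n = 3, adjusted p = 1.15e-08) and rose by 1.80 in myotubes (adjusted p = 1.99e-05). Gsn is also abundant in fibroblasts. The 7 fibroblast markers summed to 12028 to 21929 in freshly isolated, 3167 to 3201 in proliferating and 3909 to 5098 in myotube libraries. Col3a1 alone was at 7414 to 18751 in freshly isolated libraries. At the first step 5 of the 6 markers tested were called lower and 1 higher, against 35.7% and 37.6% of all genes tested. Dpt and Lum were at 0 in all proliferating libraries, whereas Pdgfra went from 4 to 9 up to 13 to 22. The part of fibroblasts in the Gsn change was not tested.

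Among 18 measured genes for actin nucleation, 12 were called higher and 4 lower at the first step (median 1.16), and 3 higher and 12 lower at the second (median -0.68). The formin genes Fmnl3 and Inf2 rose by 3.08 and 2.08 on the log2 scale and then fell by 2.61 and 1.86 (limma adjusted p = 2.05e-08, 2.82e-07, 6.65e-07 and 2.8e-06). Actr2, a subunit of the Arp2/3 complex, rose by 1.89 and fell by 0.40 (adjusted p = 0.00391). The formins Fhod3, known from sarcomere assembly, and Daam2 went up at both steps, by 1.79 and 3.28 and by 1.25 and 2.11.

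For crosslinkers and side binders, 8 of 14 measured genes were called higher and 2 lower at the first step (median 1.24), and 5 higher and 7 lower at the second (median -0.64). Flnc, the muscle filamin, had a value of 149537 ± 13496 (SD, n = 3) in freshly isolated cells and fell by 3.44 on the log2 scale (limma adjusted p = 1.55e-07). Its second change was 0.30 (adjusted p = 0.229), and 0.51 (adjusted p = 0.0437) without proliferating replicate 2. Actn2, the alpha-actinin of the Z-disc, rose by 2.24 (3.17 with freshly isolated replicate 1 and proliferating replicate 1 both omitted) and 5.82, and Actn3, the fast-fibre alpha-actinin, had a first change of 0.29 (adjusted p = 0.391), which was 0.73 (adjusted p = 0.00089) without proliferating replicate 1, and then rose by 2.46. Actn3 made up 2178 to 2708 of the summed value of 9 adult myofibre markers in freshly isolated libraries, 2682 to 3020, and the part of myofibre RNA in the values of Acta1 there was not tested. Cnn2, a calponin, rose by 3.69 and 0.59 (adjusted p = 2.62e-08 and 0.0121), the second change missing the threshold with libraries scaled to the same total (0.41, adjusted p = 0.163), without proliferating replicate 1 (adjusted p = 0.0512) or without myotube replicate 2 (adjusted p = 0.0503).

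The barbed-end capping list gave 4 of 6 measured genes higher and 1 lower at the first step (median 0.65), and 2 higher and 2 lower at the second (median -0.15), where 37.6% and 35.7% and then 28.6% and 25.5% of all genes tested were called higher and lower. Capzb, the beta subunit of capping protein, rose by 1.53 (limma adjusted p = 2.67e-07), and its alpha subunits Capza1 and Capza2 rose at both steps, by 0.84 and 0.41 and by 0.55 and 1.12. The small second change of Capza1 (adjusted p = 0.0334) was lost when any 1 of the 6 libraries compared was omitted, with adjusted p between 0.0633 and 0.105, and then 1 gene of this list was called higher at that step. Add3, an adducin, fell at both steps, by 2.12 and 1.44.

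The list of serum response factor, its actin-sensing cofactors and their known targets gave 5 of 9 measured genes higher and 2 lower at the first step (median 0.72), and 2 higher and 5 lower at the second (median -0.66). The cofactor genes Mkl1 and Mkl2 rose by 1.468 and 1.502 on the log2 scale in proliferating cells (limma adjusted p = 2.24e-06 and 2.32e-06) and fell by 1.31 and 1.03 in myotubes (adjusted p = 1.4e-05 and 7.8e-05). The target genes did not share a course. Myl9 and Fhl2 rose by 4.38 and 4.24 at the first step, whereas Ctgf fell by 5.27 and Cyr61 by 1.43 (adjusted p = 8.64e-08 and 5.22e-07), from 4863 ± 119 and 11655 ± 800 (SD, n = 3) in freshly isolated cells. Cyr61 fell again by 0.90 in myotubes.

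**Figure D4:**
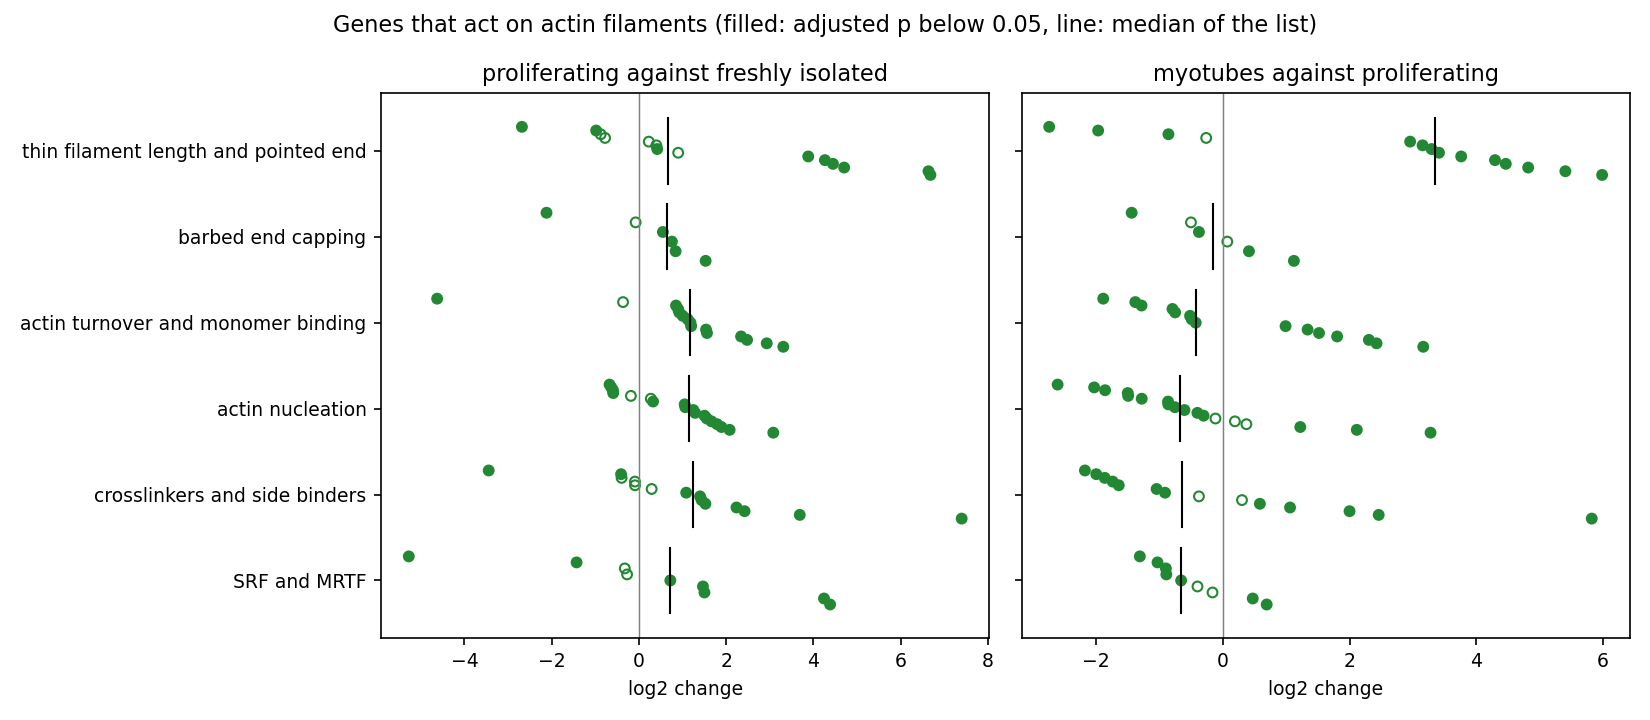
Log2 change of the measured genes of the 6 lists at the first step (left) and the second (right), filled where the adjusted p was below 0.05, with a line at the median of each list. At the second step the thin filament list has its median at 3.35 while those of the other 5 lists lie between -0.68 and -0.15.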

How the data were processed

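RNA was depleted of ribosomal RNA and made into stranded total RNA libraries from 100 ng of input, per the labels' protocols. The submitters' processing notes name STAR 2.4.0a, featureCounts 1.4.5-p1 from Subread and the genome build mm10 (GRCm38). The scores used here are the deposited normalized read counts, scaled between libraries by the authors and rounded to whole numbers, per the file headers and values; the scaling tool and the strand setting of the counting are not given in the sources used here. They are not raw counts, so no count model was used. The columns for freshly isolated cells were matched to the labels by elimination, since the other 2 prefixes match the other 2 stages.

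Values were tested with limma 3.58.1 in R 4.3.3 on log2(value + 1), with trend, in the 17291 of 45706 genes whose value reached 10 in 3 libraries, and checked on simulated data. Exon lengths came from the GENCODE annotation of GRCm38, and sequences from GENCODE transcripts and RefSeq windows. Shares, distances and figures were made with matplotlib 3.10.9, numpy 2.4.6 and pandas 2.3.3 under Python 3.11.15. The genes named are all 10 members, the 3 largest called changes of each partner list at each step, the 3 genes with the nearest profile and copies of the members; marker genes and the genes that share exons or windows with members stand only beside a result. A partner gene that this rule names is not reported here. Members and lists were chosen with earlier results of these data known. Replicate numbers were not used as pairs. Alternatives covered the pseudocount, the filter, the scaling, library weights, a replicate block and the omission of libraries. Replicates come from different animals within a stage, per the labels.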

Additional observations from a re-analysis of the deposited data

How the results depend on the processing

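The direction of every called change of the 10 genes was the same under all alternatives tried. The count of genes called lower at the first step, 1 (Tpm3), was 0 with libraries scaled to the same total and under quantile normalization, and ranged from 0 to 1 when single libraries were omitted (0 without proliferating replicate 3). The count called higher for the second change minus the first, 1 (Tpm3), was 0 with the same total and ranged from 0 to 2 when single libraries were omitted, with 2 without freshly isolated replicate 2 and 0 without proliferating replicate 3. The cause was not tested. Scaling to the same total moved the median of all genes by 0.29 at the first step and by -0.16 at the second, and quantile normalization moved it by -0.14 at the second. Changes that were not called also changed sign. The difference between the steps became -0.088 for Actc1 with freshly isolated replicate 1 and proliferating replicate 1 both omitted. For Acta2 the difference ranged from -0.96 (without proliferating replicate 1) to 0.45 (without proliferating replicate 2). Myotubes against freshly isolated cells became 0.062, 0.029 and 0.077 for Tpm3 (same total, quantile normalization, array weights). Over the omission of single libraries it ranged from -0.25 to 0.21 for Tpm3 and from -0.019 to 0.18 for Tpm4, with the sign changed without myotube replicate 2 in both. Actb passed the test there with a pseudocount of 10 (adjusted p = 0.0464), without freshly isolated replicate 2 (0.033) and without myotube replicate 3 (0.036).

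Correlations of same-numbered deviations lay between -0.03 and 0.03, and those of differently numbered ones between -0.058 and 0.059. Whether the stages shared animals cannot be told from these values, since other differences between libraries may hide an animal's share. With the replicate number as a block, the second change of Tpm3 (limma adjusted p = 0.0524) and the difference between the changes of Tpm2 (adjusted p = 0.0665) were no longer called, Actb in myotubes against freshly isolated cells was (adjusted p = 0.0288), and no other member changed its call.

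The partner genes and lists were run under the same alternatives after the data had been seen. Of 432 list counts, 30 moved by more than 1.5 times, all of them small counts. Uncalled partner changes turned sign for Tmod1 at the first step (-0.28 to 0.88 over the omission of single libraries). At the second step they did so for Capzb (-0.10 with the same total, -0.077 under quantile normalization), Flnc (-0.10 under quantile normalization) and Ctgf (0.14 with array weights, 0.23 with freshly isolated replicate 1 and proliferating replicate 1 omitted, and -0.40 to 0.23 over single libraries). Values under about 10 units, as for Actg2 in freshly isolated cells, rest on too few reads for a precise fold change.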
